A study of Drosophila melanogaster with 2 samples.

Results

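The Hedgehog pathway genes were 10 listed members out of 13945 annotated protein-coding genes: hh, disp, ptc, ihog, boi, smo, cos, fu, Su(fu) and ci. They were listed by name. The data came from chromatin immunoprecipitation and sequencing (ChIP-seq) of the transcription factor Gcm in whole Drosophila melanogaster embryos. There was 1 group, with 2 biological replicates labelled 1 and 3: embryos of both sexes, 0 to 16 hours old, of the gcm-GFP strain, a transgenic line in which Gcm carries GFP at its C-terminus. The antibody recognised GFP, so the tagged protein was precipitated, and cells that make Gcm and cells that do not were pooled in whole embryos. Both replicates carry 1 donor label, and nothing further says how far apart their embryos were collected. The design holds no contrast between groups, so the values below are descriptions with no test.

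In the fly embryo the Hedgehog pathway carries a signal between neighbouring cells. The lipid-modified Hedgehog protein is released from its source cell with the help of Dispatched and is received by Patched together with the co-receptors Ihog and Boi. Free Patched holds the membrane protein Smoothened inactive. Once released from that hold, Smoothened acts through a complex of the kinesin-like scaffold Costal, the kinase Fused and the inhibitor Su(fu) on Ci, the zinc-finger factor that switches target genes on or off. Gcm is known for directing glial fate in the nervous system and for its role in embryonic blood cells.

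Each deposited peak has a summit, the base where its signal was highest. Windows of 100 bp on each side of 4 summits are shown first, since the later results turn on them; letters are from the RefSeq Release 6 assembly, whose coordinates are those of build dm6, on the + strand. Capitals mark a Gcm word, defined here as ATACGGGC, ATACGGGT, ATGCGGGC or ATGCGGGT on either strand. Only the summit inside the hh intron, at chr3R:23133262-23133462, held such a word among the pathway's summits of the most stringent list. The weaker summit nearer the hh promoter, at chr3R:23140276-23140476, came from the pooled list. The window upstream of ihog, at chr2L:6950209-6950409, was around the strongest summit of the pathway, and the fu window, at chrX:18657396-18657596, was the one richest in A and T.
hh intron, stronger summit: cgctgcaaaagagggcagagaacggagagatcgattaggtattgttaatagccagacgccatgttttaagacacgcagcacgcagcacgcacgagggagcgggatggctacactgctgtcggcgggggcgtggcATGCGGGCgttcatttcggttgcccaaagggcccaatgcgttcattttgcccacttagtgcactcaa
hh intron, weaker summit: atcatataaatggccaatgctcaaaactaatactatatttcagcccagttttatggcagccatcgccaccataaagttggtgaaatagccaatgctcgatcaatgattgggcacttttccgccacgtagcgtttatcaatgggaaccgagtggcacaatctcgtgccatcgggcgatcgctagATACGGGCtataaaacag
ihog upstream: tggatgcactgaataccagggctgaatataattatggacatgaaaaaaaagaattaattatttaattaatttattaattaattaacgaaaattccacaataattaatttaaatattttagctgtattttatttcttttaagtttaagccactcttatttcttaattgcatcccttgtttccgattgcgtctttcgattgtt
fu upstream: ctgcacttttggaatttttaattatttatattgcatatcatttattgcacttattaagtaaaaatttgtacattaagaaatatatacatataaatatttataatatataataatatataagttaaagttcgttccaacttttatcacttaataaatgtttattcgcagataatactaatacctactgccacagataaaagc

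The authors deposited 4 peak lists: 1 for each replicate, 1 called on both replicates pooled, and 1 thresholded by IDR, the irreproducible discovery rate, which measures how repeatable peak ranks are between replicates. There were 30000 peaks in each of the first 3. The IDR-thresholded list had 5707, and these were the strongest peaks of the pooled list, unchanged. Peak height is the authors' own signal value, and its scale differs between lists, so heights and ranks (1 is the strongest) were read within a list. Median signal was 299 in the IDR-thresholded list, 85.0 in the pooled list, 50.9 in replicate 1 and 42.6 in replicate 3. Read depth is unknown, because peak lists carry no read totals. As a check of the precipitation, gcm itself held 1 IDR-thresholded summit (signal 552, rank 937), its paralogue gcm2 held 3 (highest 1341, rank 117) and the glial gene repo held 2 (highest 787, rank 427).

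Of the 10 pathway genes, 6 held at least 1 IDR-thresholded summit in their territory, the gene body plus 2 kb upstream: hh, ptc, ihog, boi, fu and ci. Over all protein-coding genes that share was 28.2%. The 6 genes held 11 such summits, 4 of them in ptc, 2 each in hh and ihog, and 1 each in boi, fu and ci. In the pooled list 8 members held 55 summits, beside 51.2% of all genes with at least 1. Of the 55, 10 lay within 300 bp of a stronger summit (18.18%, beside 18.25% of all pooled summits). The same 8 members held 51 summits in the replicate 1 list (54.0% of all genes) and 52 in the replicate 3 list (53.1% of all genes). The genes added by the longer lists were smo and Su(fu), while disp and cos held no summit in any list, as did 41.6% of all protein-coding genes.

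**Figure D1:**
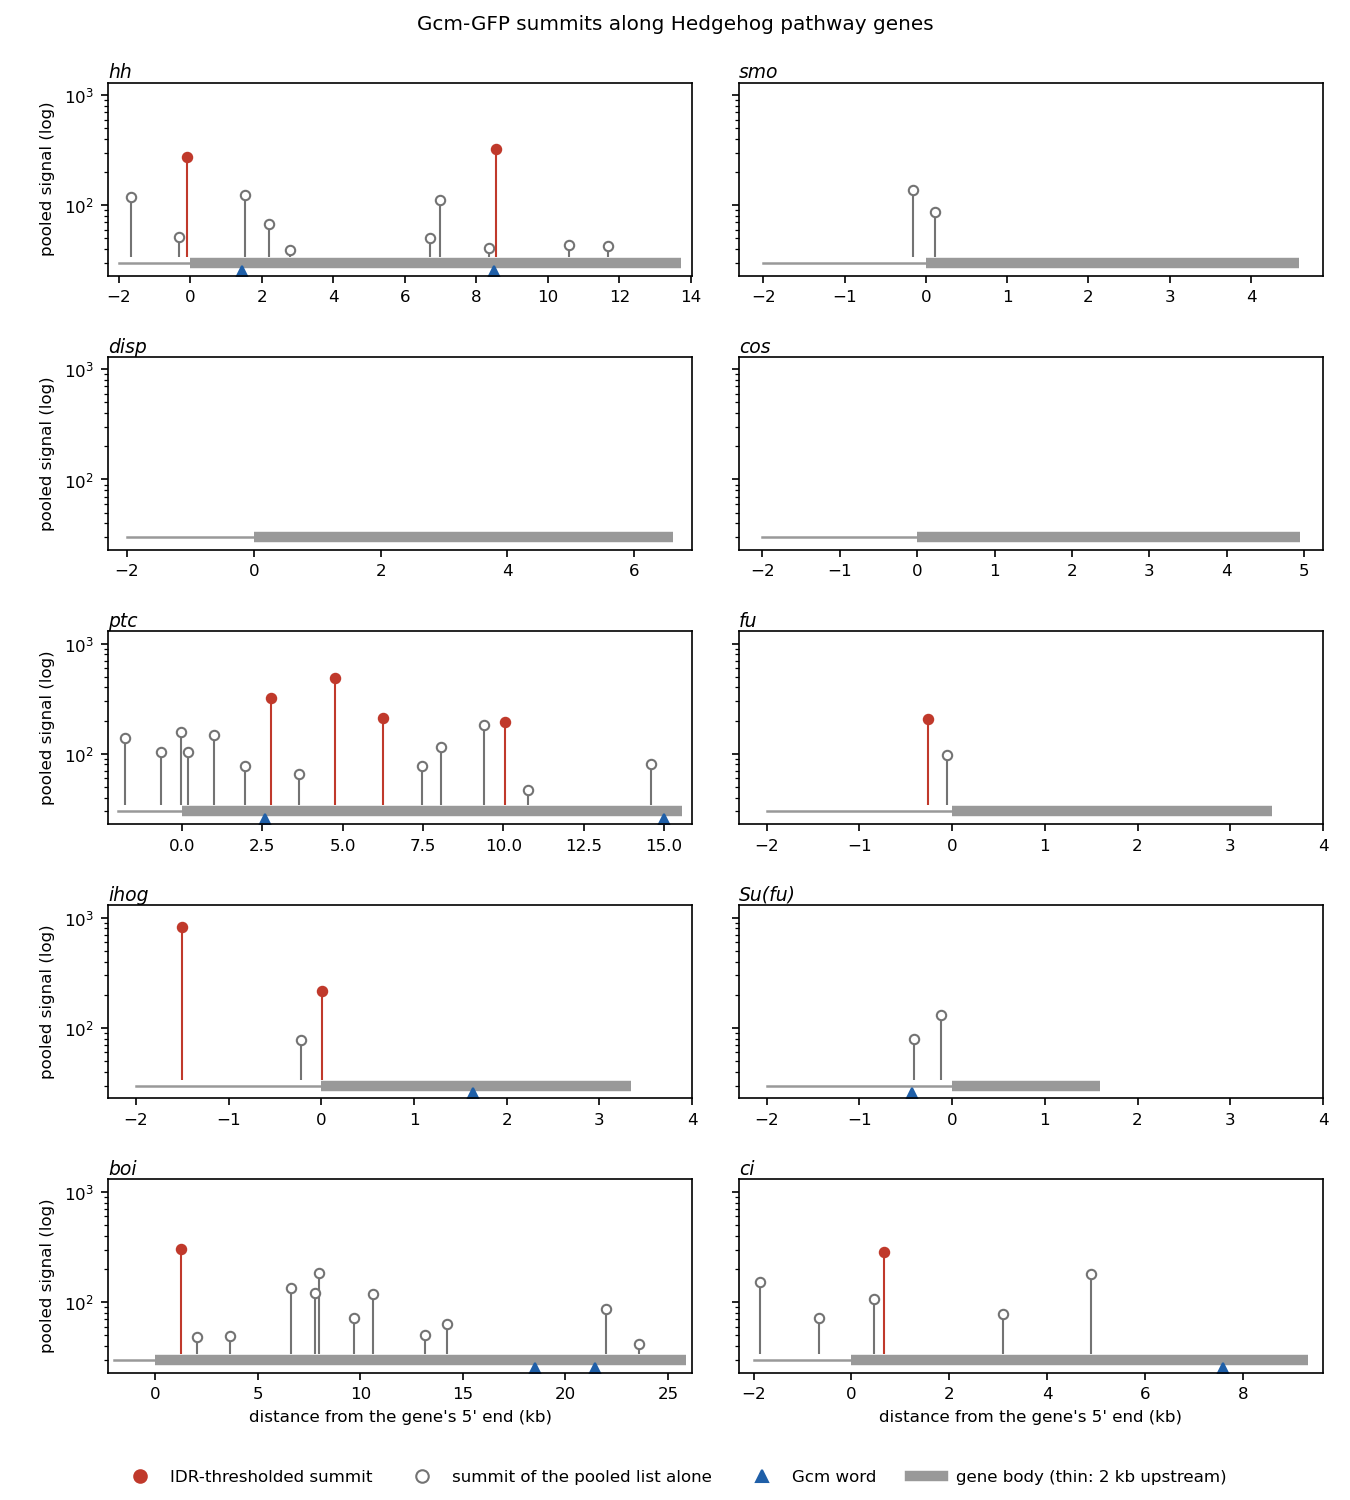
Signal of every pooled summit (log axis) along each of the 10 genes, by distance in kb from the gene's 5' end, with the gene body as a thick bar and the upstream 2 kb as a thin one. Filled circles are the 11 IDR-thresholded summits, open circles the other pooled summits and triangles the 9 Gcm words; ptc carried 16 pooled summits across its territory, and disp and cos carried 0.

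The ligand gene hh (FBgn0004644, chr3R:23128169-23141906, minus strand) had an IDR-thresholded summit at each of 2 places. The intronic one, in the peak chr3R:23133237-23133474, lay 8544 bp inside the gene. Its signal was 326 in the pooled and IDR-thresholded lists (rank 2488 of 5707), 152 in replicate 1 (rank 3486) and 161 in replicate 3 (rank 2154). The nearest protein-coding transcription start site (TSS) was not that of hh but that of CG31457, 5381 bp away. The promoter summit, in the peak chr3R:23141793-23142216, lay 99 bp upstream of the hh TSS with a signal of 277 (rank 3238). Replicate 1 gave it 162 (rank 3119) and replicate 3 gave it 110 (rank 4108). The order of the intronic and promoter summits therefore differed between replicates: the promoter was the higher one in replicate 1, the intron in replicate 3.

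Another 10 pooled summits lay in the hh territory below the IDR-thresholded set, with signals of 39.4 to 124. The weakest peak of the whole pooled list had 37.8, so the lower ones were near its floor. The highest of the 10 was the intronic summit 1530 bp inside the gene, whose window with a Gcm word is printed above. Its pooled signal was 124 (rank 9888 of 30000), with 55.8 in replicate 1 (rank 13605) and 80.3 in replicate 3 (rank 6667). Upstream, a summit 1666 bp from the TSS had a pooled signal of 118 (rank 10552), with 89.8 in replicate 1 (rank 7623) and 28.5 in replicate 3 (rank 22782). These weaker hh summits leaned towards different replicates. The next IDR-thresholded summit beyond the territory was 813 bp outside it, with a signal of 273 (rank 3304), and lay nearest the TSS of CG31457.

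The release gene disp (FBgn0029088, chr3R:5849697-5856311, minus strand) had no summit in its 8.62 kb territory. The nearest summit outside was 25023 bp away in both the IDR-thresholded and pooled lists. It had a signal of 353 (rank 2180) and lay nearest the TSS of dgrn. The ligand gene thus had 12 pooled summits and the gene for its release 0.

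The receptor gene ptc (FBgn0003892, chr2R:8649649-8665223, plus strand) is itself a classic target of Ci. Its 4 IDR-thresholded summits were all intronic. The strongest, in the peak chr2R:8654259-8654606, lay 4766 bp inside the gene. It had a pooled signal of 490 (rank 1217), with 301 in replicate 1 (rank 1005) and 204 in replicate 3 (rank 1388). It was the second strongest of the 11 pathway summits. The summit at 2776 bp, in the peak chr2R:8652316-8652545, had a signal of 323 (rank 2507), with 169 in replicate 1 (rank 2873) and 157 in replicate 3 (rank 2233).

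The other two ptc summits were close to the lower end of the IDR-thresholded list, whose weakest peak had a signal of 191. At 6263 bp, in the peak chr2R:8655700-8656123, the signal was 210 (rank 4987), with 109 in replicate 1 (rank 5809) and 104 in replicate 3 (rank 4564). At 10055 bp, in the peak chr2R:8659640-8659797, it was 194 (rank 5563), with 135 in replicate 1 (rank 4227) and 66.6 in replicate 3 (rank 8636). This last summit was nearest the TSS of Acsl, 6109 bp away, and the first 3 were nearest that of ptc among protein-coding genes. The summits at 6263 bp and 10055 bp were each among the 5707 strongest peaks of 1 replicate and outside them in the other. A ptc summit 9406 bp inside the gene, with a signal of 181 (rank 6116), fell just short of the IDR-thresholded set.

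At the ptc promoter the pooled list held a summit 37 bp upstream of the TSS with a signal of 156 (rank 7451). Replicate 1 gave it 123 (rank 4861) and replicate 3 gave it 50.6 (rank 12221). At 994 bp inside the gene the pooled signal was 149 (rank 7923), with 121 in replicate 1 (rank 4979) and 32.9 in replicate 3 (rank 19747). Both promoter-proximal summits were among the 5707 strongest peaks of replicate 1 and well below them in replicate 3. With these, ptc had 16 pooled summits, more than any other member, at 0.91 per kb of territory.

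The upstream summit at 666 bp from the ptc TSS stood out by its letters. Its pooled signal was 104 (rank 12134), with 60.1 in replicate 1 (rank 12529) and 42.5 in replicate 3 (rank 15052). Within 100 bp it held 3 copies of the Ci word GACCACCCA, at 88, 31 and 35 bp from the summit, counting both strands. Of 30000 pooled summits, 28 (0.0933%) held this word at all, and this was the 1 summit with 3 copies. None of the 11 IDR-thresholded pathway summits held it, beside 1 of all 5707 (0.0175%). The summit was thus of middling height in all 3 lists that held it and was outside the IDR-thresholded set.

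The co-receptor gene ihog (FBgn0031872, chr2L:6945464-6948808, minus strand) held the strongest summit of the pathway, in the peak chr2L:6950139-6950460. It lay 1501 bp upstream of ihog, between the starts of Gas41 at 102 bp and SA1 at 112 bp. The replicate 1 summit was nearest Gas41, at 86 bp, and the replicate 3 summit nearest SA1, at 102 bp. Its signal was 818 (rank 389), with 481 in replicate 1 (rank 360) and 342 in replicate 3 (rank 431). Its membership in the ihog territory is a matter of distance, and the data do not say which of the 3 genes it serves. At the ihog promoter, in the peak chr2L:6948592-6949015, a second summit was 4 bp from the TSS. Its signal was 215 (rank 4836), with 112 in replicate 1 (rank 5554) and 110 in replicate 3 (rank 4137).

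The other co-receptor gene, boi (FBgn0040388, chrX:2444167-2470043, minus strand), was the longest of the pathway, with a territory of 27.9 kb. It has 2 annotated TSS. Its 1 IDR-thresholded summit, in the peak chrX:2468665-2468869, lay in an intron 1254 bp from the TSS at its 5' end. Its signal was 304 (rank 2775), with 200 in replicate 1 (rank 2156) and 102 in replicate 3 (rank 4667). Of the 11 other pooled summits, the highest lay 8010 bp from the same TSS with a signal of 183 (rank 5993), just outside the IDR-thresholded set. Replicate 1 gave this one 84.8 (rank 8220), in a peak it shared with a neighbouring summit, and replicate 3 gave it 120 (rank 3573). The boi summit at 1254 bp thus ranked higher in replicate 1, and the one at 8010 bp in replicate 3. A pooled summit with a signal of 86.8 (rank 14695) lay 188 bp upstream of the internal boi TSS and 124 bp from the TSS of z.

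The signal transducer smo (FBgn0003444, chr2L:277582-282167, plus strand) had 2 pooled summits, both at its promoter, within the overlapping gene CG17078, and below the IDR-thresholded set. The one 153 bp upstream had a pooled signal of 136 (rank 8813), with 81.2 in replicate 1 (rank 8729) and 65.7 in replicate 3 (rank 8788). Its ranks were nearly equal in the 3 lists, but the matched replicate 3 summit lay 132 bp away, 21 bp upstream of the TSS. The one 117 bp inside the gene had a pooled signal of 87.4 (rank 14611). The next IDR-thresholded summit was 1742 bp beyond the territory, with a signal of 206 (rank 5118), nearest the TSS of CG11555.

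Among the cytoplasmic complex, the scaffold gene cos (FBgn0000352, chr2R:7382176-7387115, minus strand) had no summit in any list. The nearest pooled summit was 1430 bp outside its territory, with a signal of 44.2 (rank 26644), and the nearest IDR-thresholded one 9753 bp outside, with 204 (rank 5200). Both lay nearest the TSS of Dscam1. The kinase gene fu (FBgn0001079, chrX:18657755-18661204, plus strand) had 1 IDR-thresholded summit, in the peak chrX:18657394-18657556, 259 bp upstream of its TSS. The TSS of CG6659 was nearer, at 210 bp, and likewise for the replicate 1 summit. The replicate 3 summit was almost midway, 234 bp from fu and 235 bp from CG6659. The signal was 204 (rank 5177), with 99.6 in replicate 1 (rank 6604) and 104 in replicate 3 (rank 4556). A weaker pooled summit lay 50 bp upstream of the fu TSS, which was the nearest. That one had a signal of 97.7 (rank 12998), with 79.5 in replicate 1 (rank 8961). In replicate 3 it fell in the same peak as the stronger summit. When the 5707 strongest peaks of replicate 1 alone were used, fu held none and 5 members had a summit, beside 29.0% of all genes.

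The inhibitor gene Su(fu) (FBgn0005355, chr3R:12689873-12691468, minus strand) had the shortest territory, 3.6 kb, and 2 pooled summits below the IDR-thresholded set. The one 115 bp upstream of its TSS had a pooled signal of 131 (rank 9309), with 106 in replicate 1 (rank 6032) and 34.8 in replicate 3 (rank 18646). The one 415 bp upstream was nearest the TSS of Arp1, 140 bp away. Its pooled signal was 79.5 (rank 16059), with 78.8 in replicate 1 (rank 9072) and 24.2 in replicate 3 (rank 26430). It held the Gcm word ATGCGGGT 14 bp from the summit. Both Su(fu) summits stood far lower in the replicate 3 ranking than in that of replicate 1.

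The transcription factor gene ci (FBgn0004859, chr4:47710-57041, minus strand) has 2 annotated TSS. Its IDR-thresholded summit, in the peak chr4:56170-56593, lay 51 bp upstream of the internal one and 659 bp inside the gene. The signal was 287 (rank 3024), with 194 in replicate 1 (rank 2277) and 102 in replicate 3 (rank 4689). Of the 5 other pooled summits, the highest was 4896 bp inside the gene, in a 5' UTR, with a signal of 179 (rank 6189), 101 in replicate 1 (rank 6476) and 75.6 in replicate 3 (rank 7258). A summit 1874 bp upstream had a pooled signal of 152 (rank 7710).

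**Figure D2:**
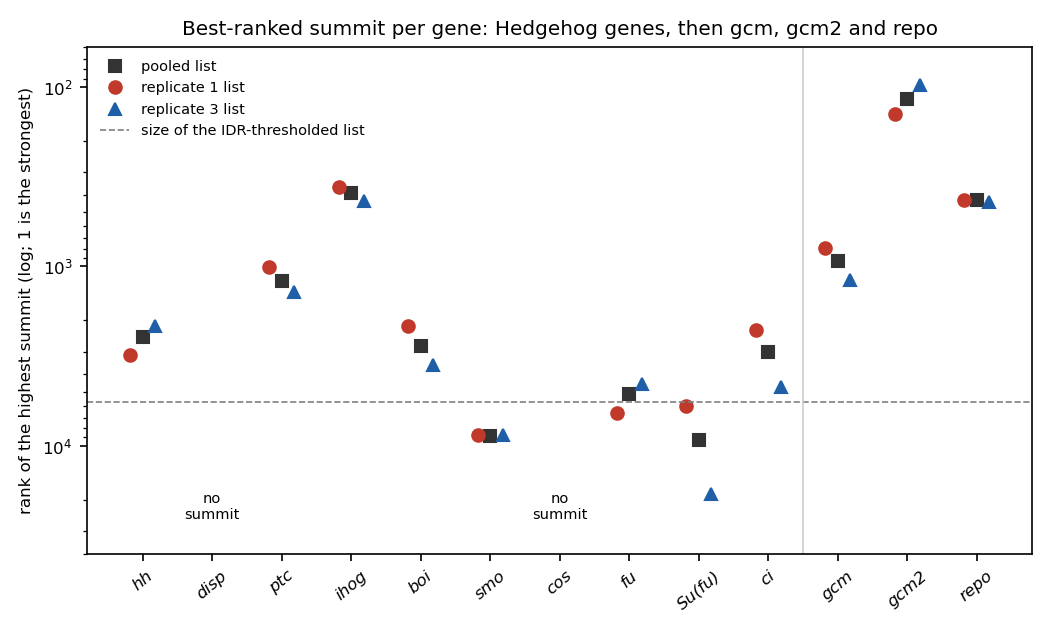
Rank of the highest summit of each gene in the pooled, replicate 1 and replicate 3 lists (log axis, 1 at the top is the strongest), with the size of the IDR-thresholded list, 5707, as a dashed line. Of the 10 pathway genes, ihog stood highest at rank 389 in the pooled list, smo and Su(fu) lay below the line in that list, and disp and cos had no summit.

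The 11 IDR-thresholded summits had a median signal of 287 (range 194 to 818), beside 299 for the whole list, and 5 of the 11 were above that median. Of the 11, 5 lay within 500 bp of a protein-coding TSS and 6 in introns, beside 39.5% and 38.4% of all 5707. None was intergenic, beside 19.2% of all 5707. The choice of territories around genes makes that class rare among member summits, while the list was not limited to territories. The nearest protein-coding TSS was the member's own for 7 of the 11 (63.6%), beside 66.5% of 6701 pairs of gene and summit over all genes. The exceptions were the hh intronic summit, the ptc summit at 10055 bp, the ihog summit between Gas41 and SA1, and the fu summit, which was nearest fu in replicate 3. When non-coding genes were counted too, 4 of the 11 were nearest their own member, since lncRNA:CR44281 starts within the ptc intron and took 3. No share over all genes is given for this count, and added start sites can only lower it for any gene.

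All 11 IDR-thresholded pathway summits lay in a peak of both replicate lists, as did 99.0% of the whole list. Of the 55 pooled pathway summits, 45 did, beside 79.3% of all pooled summits; a few of these were shoulders that fell in the same replicate peak as a stronger neighbour. The ratio of replicate 1 to replicate 3 signal had a median of 1.4 over the 11 (range 0.947 to 2.03) and 1.27 over the whole list (10th to 90th percentile 0.892 to 1.77). The ratios of boi (1.96), ci (1.91) and the ptc summit at 10055 bp (2.03) were above that 90th percentile. The lists differ in scale, so a ratio over 1 was usual. Among the 5707 strongest peaks of each replicate, 8 of the 11 were found in both. No share over the whole list is given for this stricter count. Whether it is particular to the pathway was not tested.

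**Figure D3:**
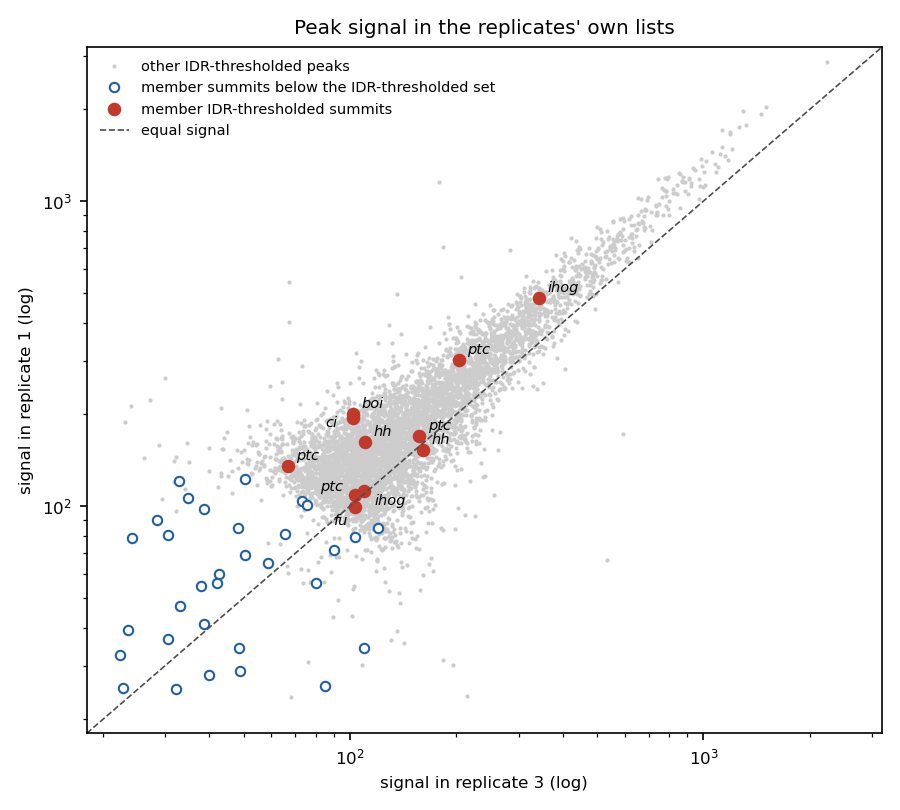
Signal in the replicate 1 list against the replicate 3 list (log axes; the dashed line is equal signal) for IDR-thresholded peaks in grey, the 11 pathway summits among them in red and weaker pathway summits as open circles. The ihog summit between Gas41 and SA1 is the highest of the 11 at 481 and 342, and boi (200 and 102) and ci (194 and 102) lie close together above the line.

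The Gcm word was found at 1 of the 11 IDR-thresholded summits, beside 9.76% of the list (557 of 5707). That was the hh intronic summit, where the word ATGCGGGC was centred 37.5 bp from the summit. In the pooled list 3 of 55 pathway summits held it, beside 4.77% of all: this hh summit, the hh summit at 1530 bp, with ATACGGGC, and the Su(fu) summit at 415 bp. At the hh summit at 1530 bp the word was centred 86.5 bp from the pooled summit. The window of the matched replicate 3 summit lacked it, and that of a neighbouring replicate 3 summit held it. With up to 1 mismatch, 2 of the 11 held the word, beside 36.1% of the list. A match is a description of letters, and its absence says only that they are not in the window.

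The territories of the 10 genes held 9 Gcm words, 2 each in hh, ptc and boi and 1 each in ihog, Su(fu) and ci. Of the 9, 1 lay within 100 bp of an IDR-thresholded summit (11.1%, beside 8.43% of 5351 words in all protein-coding territories) and 3 of a pooled summit (33.3%, beside 21.5%). The ptc word nearest a summit was 189 bp from the IDR-thresholded one at 2776 bp. The words in ihog, boi and ci lay in coding exons, at least 527 bp from any pooled summit. Of 6 Ci words, 4 lay in ptc and 1 each in hh and smo. None of the 11 summits held the GAGA word GAGAGAG (6.61% of the list), the Zelda word CAGGTAG (1.07%) or the DRE word TATCGATA (2.21%), each sought on both strands. In the pooled list the GAGA word was at 4 of 55 pathway summits, in ptc and ci, beside 5.29% of all. The Zelda word was at 1 (1.06% of all) and the DRE word at 0 (1.5% of all).

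Base composition, examined after the summits had been seen, varied widely among them. The share of G and C within 100 bp was 56.2% at the hh intronic summit, the 96.2 percentile of the list, and 20.9% at the fu summit, the 1.12 percentile. The ihog summit between Gas41 and SA1 was also rich in A and T, at 24.9% (5.66 percentile). The median over the 11 was 41.8%, beside 37.3% for the list.

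The number of summits moved with the length of the territory, and its part in the counts above was not tested. Length classes were set after the counts had been seen. Among 1182 genes with territories of 10 to 20 kb, 50.3% held an IDR-thresholded summit, and so did all 3 members of that class, hh, ptc and ci. Among 2995 genes of 5 to 10 kb the share was 33.2%, and 2 of the 5 members held one, ihog and fu, while disp, smo and cos did not. Su(fu) was in the class up to 5 kb, where the share was 19.5%, and boi in the class above 20 kb, where it was 58.5%. In pooled summits, ptc with 16 and hh with 12 were above the median of 3 and the 90th percentile of 10 in their class. In its own class boi, with 12, was above the median of 7 and below the 90th percentile of 28.

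**Figure D4:**
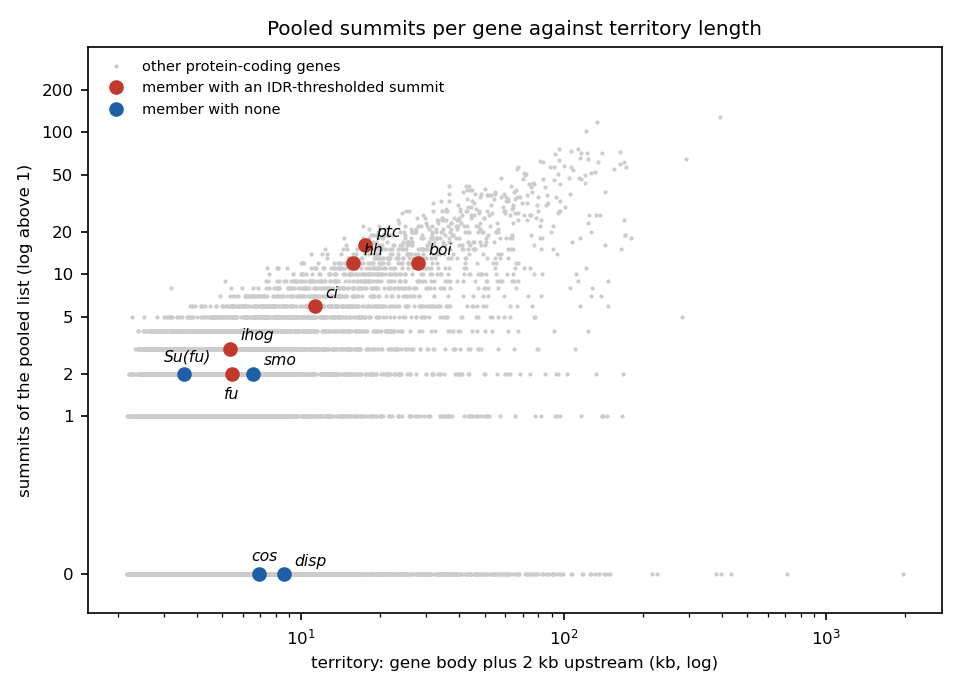
Number of pooled summits against territory length in kb for every protein-coding gene (log axes, the vertical one linear from 0 to 1). The genes ptc (16) and hh (12) lie in the upper part of the cloud at their length, and cos and disp lie at 0.

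Of 32 further genes of the pathway, listed by role, 22 (68.8%) held an IDR-thresholded summit and 31 a pooled one, beside the 28.2% and 51.2% of all genes given above, with territory length not taken into account. Among genes for release and spread of the ligand, 4 of 7 held one. The highest were in the glypican genes dlp (signal 703, rank 562, nearest the TSS of CG43121) and dally (297, rank 2871, nearest the TSS of CG32026). The heparan sulphate polymerase genes ttv (218, nearest the TSS of LamC) and sotv (217) followed. All 7 kinase and phosphatase genes held one, and the highest lay near the top of the whole list. These were Gprk2, a kinase gene acting on Smoothened, with 2370 (rank 18, nearest the TSS of PNPase), and gish, a casein kinase gene, with 2299 (rank 21). The kinase genes sgg (1230, rank 155) and dco (472, rank 1296) came next.

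Among ubiquitin and degradation genes 4 of 8 held an IDR-thresholded summit. For this and the counts below, the share of all protein-coding genes was 28.2%. The adaptor gene rdx, which acts on Ci, had 12, the highest with 828 (rank 381), and Ubr3 (485), Usp8 (230) and Usp7 (202) followed. Of the cofactors, nej, which encodes the fly CBP, held one of 1252 (rank 144) and krz held none. Of genes that respond to the pathway, 6 of 8 held one, led by dpp (397), sr (391), wg (366) and kn (263), while en and inv held none. For side-by-side reading, 8 of 10 Wnt core genes held one (39 summits, the highest in sgg at 1230). Of the 39, 14 lay in fz and 13 in fz2, with territories of 96297 and 96399 bp. In the BMP core 8 of 10 genes held one (14 summits, the highest in the gbb territory at 1138, nearest the TSS of eIF6). The Wnt core genes sgg and wg and the BMP core gene dpp were also among the 32 further genes. The Hedgehog members' 6 of 10 was the lowest of these 3 counts, with no test of the difference and territory length not taken into account. The longest Hedgehog territory, that of boi, was 27877 bp.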

How the data were processed

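Peak lists on dm6 came from Gcm-GFP ChIP-seq of 2 biological replicates. Per the labels, chromatin was sonicated to 200 to 800 (size range). Per the file descriptions deposited with the lists, each replicate was called alone, the pooled list on both, and the IDR-thresholded list was made from these, with 1 control file for all, not analysed here. The sources used here name no aligner, caller, version or IDR threshold. The signal of each peak is the authors' value. The deposited −log10 q-value reached a ceiling of 4.28 in every IDR-thresholded peak and was not used for ranking. The deposited summit offset gave summit positions. The p-value column held the placeholder -1 in the deposited lists.

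Genes came from Ensembl release 115 (BDGP 6.54), on 6 arms, and sequence from Release 6; 0 peaks lay past an arm's end. Summits were assigned to territories (gene body plus 2000 bp upstream), to the nearest TSS, and to promoter (within 500 bp) or other classes with Python 3.11.15, pandas 2.3.3 and NumPy 2.4.6. A replicate peak matched when it overlapped by at least 1 bp, taking the nearest summit. Words were sought within 100 bp. The word search was tested on simulated sequence. Named were all members, the gene of the TSS nearest each IDR-thresholded member summit, up to 4 further genes per role with the highest summit, and 1 gene of each other core. Genes nearest other summits, and krz, en, inv, fz and fz2, were named after their values were seen. Members and lists were chosen with earlier results of these data known. Other settings tried were the territory, threshold, list, TSS set, word window and replicate overlap.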

Additional observations from a re-analysis of the deposited data

How the results depend on the processing

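With the 2853 strongest IDR-thresholded peaks, 5 summits lay in member territories against 11, 3 were nearest the member's TSS against 7, and 13 of the 32 further genes held one against 22. This setting removes summits from the list by construction, so lower counts were fixed in advance for any large set of genes. Counting TSS of all annotated genes, 4 summits were nearest their member, with no share over all genes given. The Gcm word was at 2 member summits with a window of 250 bp and at 2 with up to 1 mismatch, against 1. Members with a summit numbered 7 with 5 kb upstream (36.6% of all genes; smo was added), 5 in gene bodies alone (13.6%), 4 among the strongest peaks (17.9%), 8 in the pooled list (51.2%) and 4 within 1 kb of a TSS (22.0%).

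Without replicate 3 or without replicate 1, members with a summit ranged from 5 to 6 (fu was lost without replicate 3; all-gene shares were 29.0% without replicate 3 and 28.2% without replicate 1), summits were 11 in both settings, further genes ranged from 21 to 23, summits nearest the member's TSS from 8 to 9, and 1 summit held the Gcm word in both settings. Between those settings ptc had 5 summits without replicate 3 and 3 without replicate 1, and boi had 1 and 2. Summits found in both replicates were 11, and 10 when required within 100 bp, 9 with 50% reciprocal overlap and 8 among the strongest peaks. The stricter counts are given without a share over the whole list. No paired analysis was possible because there is 1 group. With read depth unknown, the absence of a summit says only that none was called.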
